A study of Mus musculus with 32 samples.

Results

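The comparison described here set dendritic cells without LMP7 and MECL1 after 6 h of lipopolysaccharide (LPS) against the same kind of cells left without LPS. It used 8 of the 32 RNA sequencing libraries of the study: 4 labelled dKO 6 h and 4 labelled dKO 0 h (no LPS). Both groups were Lmp7-/-Mecl1-/- double-knockout (dKO) cells of the C57BL/6 strain, grown from bone marrow with GM-CSF and harvested on day 9, and the 6 h group received LPS at 1 µg/mL. Wild-type (WT) C57BL/6 cells of the same culture type, with 4 libraries at 6 h and 4 at 0 h, showed where the dKO response differed. Mean WT profiles at 0, 1, 2 and 6 h were used to check the dKO labels. Expression was given as RPKM, a read density scaled by gene length and library total, and 10146 of 22216 genes were tested, those with 1 RPKM or more in 4 or more of the 8 dKO libraries. Changes were computed on the log2(RPKM + 0.5) scale, which understates the change of genes with low values. The labels do not say whether the 4 libraries of a group came from separate mice, so p-values measure the spread between libraries, which may be technical. Because both groups lacked LMP7 and MECL1, the comparison shows the response to LPS within dKO cells, and the loss itself is seen only against WT cells.

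LPS is a component of the outer membrane of Gram-negative bacteria and is sensed by the receptor TLR4. TLR4 signals through the adaptor MyD88 to NF-kappaB and inflammatory cytokine genes, and through the adaptor TRIF to interferon beta, whose receptor in turn drives antiviral genes through its own transcription factors. A dendritic cell that has met LPS matures: it lowers the uptake of antigen, raises costimulatory molecules, shifts to the lymph node homing receptor CCR7 and presents peptides on MHC molecules. LMP7 and MECL1 are catalytic subunits of the immunoproteasome, the form of the proteasome that replaces the standard catalytic subunits in immune cells and is induced by interferons.

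The depth of the 8 libraries was 1.31 to 1.84 Gb of bases over genes. Each library was correlated with these mean WT profiles. Of the 8 libraries, 6 lay nearest to WT cells of their own labelled time (Pearson's r 0.972 to 0.978 across genes). For replicate 4 of the dKO 6 h label the nearest WT profile was that of 2 h (r = 0.975, against 0.910 at 6 h). For replicate 2 of the dKO 0 h label it was that of 1 h of LPS (r = 0.972, against 0.908 at 0 h). Among the other dKO libraries, 2 h replicate 2 lay nearest to WT 0 h (r = 0.970), 1 h replicate 2 to WT 2 h (r = 0.977) and 2 h replicate 4 to WT 6 h (r = 0.967). Each of the times that replicates 2 and 4 missed at their own label was thus found at another label of the same replicate number, and whether labels were exchanged was not tested. Results are therefore given as labelled, over 8 libraries, and then over the 6 libraries that remain without these 2, with 3 libraries in each group. In what follows, "as labelled" and "over 6 libraries" stand for these fits, and 4 values in a row are replicates 1 to 4.

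After 6 h of LPS, dKO cells had turned on cytokines, chemokines and antiviral genes and raised costimulatory and MHC class I loading genes. Lower genes included the chemokine receptor gene Ccr2, the uptake receptor genes Mrc1 and Clec10a, and most of the listed genes of lipid synthesis and cell division. As labelled, 1167 genes were higher (11.5% of those tested) and 5283 were lower (52.1%) in dKO 6 h libraries than in dKO 0 h libraries at a limma adjusted p below 0.05. Over 6 libraries, 1853 genes were higher (18.3%) and 6892 lower (67.9%), and these included all 1167 genes higher as labelled and 5281 of the 5283 lower. The median SE of a log2 change was 0.233 as labelled and 0.109 over 6 libraries. Groups did not overlap in 53.9% of tested genes as labelled and in 87.2% over 6 libraries. At a change of at least 2-fold, 922 genes were higher and 3805 lower over 6 libraries, and at a change of at least 16-fold 109 were higher and 28 lower.

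The excess of lower genes depends on the scale. RPKM divides each gene by the library total, and the 1853 genes higher over 6 libraries took up 43.8 to 53.5% of all RPKM in dKO 6 h libraries, against 16.3 to 33.6% in dKO 0 h libraries. The median log2 change of all tested genes was -0.61 as labelled and -0.71 over 6 libraries. With median-of-ratios scaling, which sets that median near 0, the calls were 2752 higher (27.1%) and 2505 lower (24.7%) as labelled, and 4014 higher (39.6%) and 3803 lower (37.5%) over 6 libraries. A total of 1166 genes were called higher, and 2498 lower, in each of these 4 fits, while 914 genes lower over 6 libraries on the RPKM scale were called higher there with median-of-ratios scaling. A log2 change near -0.7 over 6 libraries is thus the level of the typical gene, and lists whose direction turns with the scale are marked below.

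**Figure D1:**
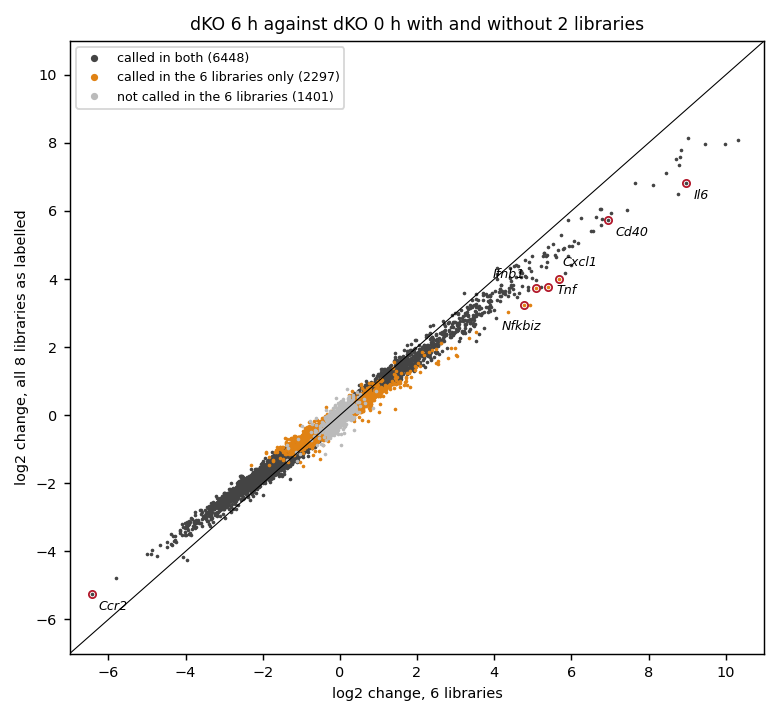
Log2 change of each tested gene, dKO 6 h against dKO 0 h, over 6 libraries (x axis) and over all 8 libraries as labelled (y axis), with 7 genes circled and named and the diagonal drawn. Il12b lies at 10.31 over 6 libraries and 8.09 as labelled, Ccr2 at -6.43 and -5.24, and 2297 genes, drawn in orange, were called over 6 libraries but not as labelled.

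The deleted genes themselves gave low values in every library. Psmb8 on chromosome 17, which encodes LMP7, had 5.31, 5.64, 5.73 and 4.61 RPKM in dKO 6 h libraries, against 4.32, 3.63, 3.95 and 4.04 RPKM in dKO 0 h libraries. WT cells had 297.3 to 312.0 RPKM at 6 h and 183.5 to 197.8 RPKM at 0 h. Psmb10 on chromosome 8, which encodes MECL1, had 11.1, 17.1, 11.6 and 6.54 RPKM in dKO 6 h libraries and 7.69, 2.37, 6.17 and 7.59 RPKM in dKO 0 h libraries, while WT cells had 91.5 to 131.2 RPKM at 6 h and 55.2 to 61.2 RPKM at 0 h. No dKO value of either gene reached the lowest WT value at the same time. Within dKO cells, neither gene was called as labelled. Both residual signals were called higher over 6 libraries, at 0.40 ± 0.09 (adjusted p = 0.00276) for Psmb8 and 0.83 ± 0.16 (adjusted p = 0.0009) for Psmb10 in log2 units ± SE. The tables do not show which part of either gene these reads came from.

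The third inducible subunit, LMP2, rose strongly. Its gene Psmb9, on chromosome 17 as is Psmb8, had 260.6, 293.1, 288.2 and 103.1 RPKM in dKO 6 h libraries, against 87.6, 64.8, 97.4 and 74.8 RPKM in dKO 0 h libraries. All dKO 6 h values were above all dKO 0 h values, with the lowest in replicate 4. The log2 change was 1.44 ± 0.32 (adjusted p = 0.00392) as labelled and 1.70 ± 0.10 (adjusted p = 3.7e-07) over 6 libraries. The standard subunits that the inducible ones replace did not follow one direction. Psmb6, the standard partner of Psmb9, was called higher in both fits, at 0.94 ± 0.10 (adjusted p = 1.1e-05) over 6 libraries. Psmb5, the standard partner of Psmb8, had 15.2, 19.9, 19.6 and 22.7 RPKM in dKO 6 h libraries and 26.6, 15.8, 29.5 and 28.7 RPKM in dKO 0 h libraries, which overlapped. It was called lower over 6 libraries alone, at -0.63 ± 0.11 (adjusted p = 0.00043). With median-of-ratios scaling Psmb5 turned to 0.13 over 6 libraries. Psmb7, the standard partner of Psmb10, was not called in either fit (log2 0.15, adjusted p = 0.114 over 6 libraries).

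PA28, the interferon-induced cap that opens the proteasome core, rose with both subunits. Psme2 had 304.3, 278.6, 297.3 and 113.7 RPKM in dKO 6 h libraries, against 76.0, 66.4, 70.2 and 73.2 RPKM in dKO 0 h libraries. Psme1 had 283.6, 276.4, 278.2 and 122.2 RPKM in dKO 6 h libraries, against 96.3, 81.6, 95.9 and 96.8 RPKM in dKO 0 h libraries. Neither gene's groups overlapped, and the log2 changes over 6 libraries were 2.00 ± 0.07 (adjusted p = 1.7e-08) for Psme2 and 1.53 ± 0.07 (adjusted p = 4.2e-08) for Psme1. Of the 38 other proteasome genes (core, regulatory particle, PA28 and assembly factors), 5 were higher and 11 lower as labelled. Over 6 libraries 9 were higher and 24 lower, with a median of -0.39 that is above the -0.71 of all genes. Both shares lower were below the 52.1% and 67.9% of all genes tested. With median-of-ratios scaling over 6 libraries this list turned to 25 higher and 5 lower. The assembly chaperone genes Psmg1 and Psmg2 fell on both scales, at log2 changes of -1.97 and -1.70 on the RPKM scale.

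**Figure D2:**
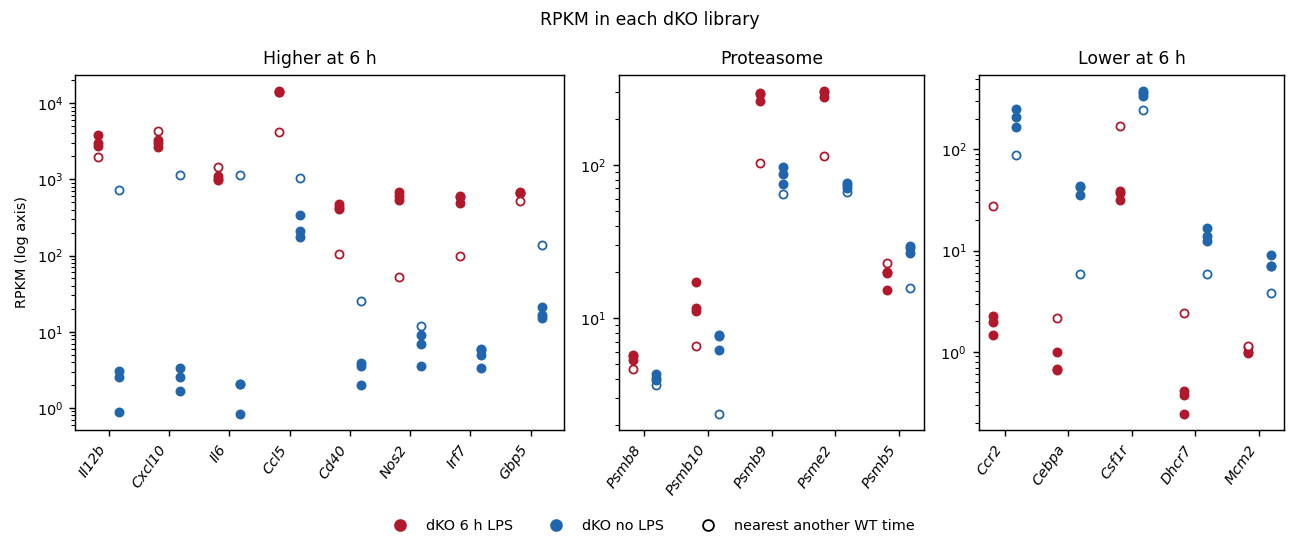
RPKM on a log axis in each dKO library for 18 genes, with dKO 6 h in red on the left and dKO 0 h in blue on the right of each gene, and open points for the 2 libraries that lay nearest to another WT time. The filled red and blue points do not overlap for any of the 18 genes, while the open points of Il12b, Cxcl10 and Il6 at 0 h lie at 735.3, 1151 and 1124 RPKM, far above the filled ones.

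Among named genes called in both fits, with a mean of at least 5 RPKM in the higher group, the 12 with the highest log2 change over 6 libraries were Il12b, Cxcl10, Rsad2, Cmpk2, Il6, Oasl1, Ifit2, Cxcl11, Ptgs2, Ifi205, Ifit1 and Tnfsf15. They comprise cytokines (Il12b, Il6, Tnfsf15), ligands of CXCR3, a chemokine receptor of T cells (Cxcl10, Cxcl11), genes of the interferon response (Rsad2, Cmpk2, Oasl1, Ifit1, Ifit2, Ifi205) and prostaglandin synthesis (Ptgs2). Il12b, which encodes the shared p40 chain of interleukins 12 and 23, had 2964, 2722, 3836 and 1989 RPKM in dKO 6 h libraries, against 3.08, 735.3, 0.889 and 2.55 RPKM in dKO 0 h libraries. Its groups did not overlap, but replicate 2 stood far above the other dKO 0 h libraries. The log2 change was 8.09 ± 1.67 (adjusted p = 0.0026) as labelled and 10.31 ± 0.31 (adjusted p = 5e-09) over 6 libraries.

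By the same rule, the 12 genes with the lowest log2 change were Ccr2, Cebpa, Scd2, Dok2, Daglb, B3gnt7, P2ry6, Tbxas1, Lyl1, Rab3il1, Galnt9 and Spint1. Ccr2, the receptor by which monocytes leave the bone marrow towards CCL2, had 1.97, 2.28, 1.48 and 27.3 RPKM in dKO 6 h libraries, against 207.0, 88.1, 168.0 and 248.4 RPKM in dKO 0 h libraries. It changed by -5.24 ± 0.77 (adjusted p = 0.00058) as labelled and -6.43 ± 0.16 (adjusted p = 2e-09) over 6 libraries. Cebpa, a transcription factor of the myeloid lineage, had 0.666, 1.00, 0.674 and 2.18 RPKM in dKO 6 h libraries and 35.6, 5.89, 42.2 and 43.5 RPKM in dKO 0 h libraries, and changed by -5.00 ± 0.13 (adjusted p = 2.4e-09) over 6 libraries. In both genes replicate 4 was the highest dKO 6 h library and replicate 2 the lowest dKO 0 h library, and the groups did not overlap. Lyl1, a blood lineage transcription factor, changed by -4.36, the nucleotide receptor gene P2ry6 by -4.39, and Tbxas1, which makes thromboxane, by -4.39 in log2 units over 6 libraries.

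Inflammatory cytokines rose as a group. Of 23 tested, 16 were higher and 2 lower as labelled (median log2 3.10), and 19 were higher and 3 lower over 6 libraries (median 3.53). Il6, a cytokine of the acute phase, had 1014, 966.2, 1113 and 1467 RPKM in dKO 6 h libraries, against 2.04, 1124, 0.836 and 2.03 RPKM in dKO 0 h libraries. Replicate 2 of the 0 h group lay within the range of the 6 h group, and the other 3 dKO 0 h libraries were near 1 or 2 RPKM. The log2 change was 6.83 ± 1.83 (adjusted p = 0.00944) as labelled and 8.97 ± 0.22 (adjusted p = 1.8e-09) over 6 libraries. Il27, whose product acts on T cells, had 156.7, 213.9, 190.5 and 180.5 RPKM in dKO 6 h libraries, against 1.45, 16.3, 1.57 and 1.11 RPKM in dKO 0 h libraries. Its groups did not overlap, and it changed by 5.84 ± 0.65 (adjusted p = 0.00022) as labelled. Il15, a survival factor for NK and memory T cells, changed by 3.19 ± 0.33 (adjusted p = 0.00017) as labelled and 3.54 ± 0.07 (adjusted p = 8.6e-10) over 6 libraries.

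Early cytokine genes had a wide spread as labelled. Tnf had 703.8, 824.2, 690.8 and 2830.0 RPKM in dKO 6 h libraries, against 18.5, 6059.8, 18.3 and 14.8 RPKM in dKO 0 h libraries. The highest of all 8 values was that of dKO 0 h replicate 2, and the highest dKO 6 h value was that of replicate 4. The log2 change of Tnf was 3.77 ± 1.73 (adjusted p = 0.0815) as labelled, which is not called, and 5.39 ± 0.11 (adjusted p = 8.5e-10) over 6 libraries. Il1b, which needs caspase 1 to mature, had 1741, 1799, 1297 and 3533 RPKM in dKO 6 h libraries and 47.9, 4987, 59.5 and 27.7 RPKM in dKO 0 h libraries, which also overlapped through replicate 2. It changed by 3.78 ± 1.40 (adjusted p = 0.039) as labelled and 5.20 ± 0.25 (adjusted p = 7.6e-08) over 6 libraries. In Il1a and Il23a too, replicate 2 was the highest dKO 0 h library and replicate 4 the highest dKO 6 h library, at log2 changes of 5.83 and 5.98 over 6 libraries. Tgfb1, an inhibitory cytokine, had 64.1, 66.3, 50.02 and 196.6 RPKM in dKO 6 h libraries, against 183.4, 197.4, 219.5 and 196.9 RPKM in dKO 0 h libraries. Replicate 4 was the 1 dKO 6 h library in the range of the 0 h group, and the log2 change was -1.73 ± 0.12 (adjusted p = 6.8e-07) over 6 libraries.

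Chemokines, which recruit and position leukocytes, also rose. Of 20 tested, 12 were higher and 1 lower as labelled (median 3.06), and 17 were higher and 3 lower over 6 libraries (median 4.05). Ccl5, a chemokine that recruits T cells, had 14129, 14156, 14575 and 4204 RPKM in dKO 6 h libraries, against 212.8, 1034, 341.5 and 173.7 RPKM in dKO 0 h libraries. Ccl22, a ligand of CCR4 on T cells, had 11104, 10592, 11368 and 3494 RPKM in dKO 6 h libraries, against 392.8, 1618, 595.1 and 318.6 RPKM in dKO 0 h libraries. Neither gene's groups overlapped, and replicate 4 was the lowest dKO 6 h library in both. The log2 changes over 6 libraries were 5.94 ± 0.21 (adjusted p = 1.6e-08) for Ccl5 and 4.71 ± 0.20 (adjusted p = 4.2e-08) for Ccl22. Cxcl10 had 2986, 3321, 2654 and 4362 RPKM in dKO 6 h libraries and 3.31, 1151, 1.69 and 2.54 RPKM in dKO 0 h libraries. It changed by 9.98 ± 0.18 (adjusted p = 5.4e-10) over 6 libraries, and Cxcl9, a further CXCR3 ligand, by 4.62.

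Chemokines for neutrophils and monocytes again split by library. Cxcl1, a neutrophil chemoattractant, had 101.2, 107.1, 111.5 and 488.7 RPKM in dKO 6 h libraries, against 1.69, 967.7, 2.04 and 1.15 RPKM in dKO 0 h libraries. Its log2 change was 4.01 ± 1.83 (adjusted p = 0.0793) as labelled and 5.68 ± 0.14 (adjusted p = 2.2e-09) over 6 libraries. Ccl4 had 1198, 1293, 896.0 and 8101 RPKM in dKO 6 h libraries and 35.3, 5076, 28.0 and 34.9 RPKM in dKO 0 h libraries. In both genes replicate 4 held the highest dKO 6 h value. Replicate 2 of the dKO 0 h group lay above every dKO 6 h library in Cxcl1 and within the range of the dKO 6 h group in Ccl4. Ccl3 and Ccl2 were placed as Ccl4 was, at log2 changes of 4.58 and 3.88 over 6 libraries. Ccl6 was abundant and lower, with 1543, 1555, 1389 and 3468 RPKM in dKO 6 h libraries, against 4796, 3807, 4621 and 5267 RPKM in dKO 0 h libraries. It changed by -1.71 ± 0.11 (adjusted p = 6e-07) over 6 libraries.

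All 36 tested interferon-stimulated antiviral genes were higher, in both fits and on both scales, with a median log2 change of 3.82 as labelled and 4.17 over 6 libraries. The list is a textbook set of effectors such as the IFIT, OAS and MX families. As examples of upstream sequence, the stretch before the transcription start is printed 5′ to 3′ for 8 genes. Each had 1 promoter window in RefSeq (build GRCm38.p6). They were 3 antiviral genes, 1 guanylate binding protein, 3 genes from among the highest above, and Ccr2, the gene that fell most. Capitals mark matches to the interferon-stimulated response element, searched as TTTC, any 2 bases and TTTC, or to an NF-kappaB motif, searched as GGGA, any 2 bases and TTCC, each on both strands.
Ifit1 (chr19:34640769-34640888, plus strand): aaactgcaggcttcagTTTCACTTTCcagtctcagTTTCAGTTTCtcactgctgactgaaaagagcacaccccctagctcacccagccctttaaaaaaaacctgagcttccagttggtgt
Isg15 (chr4:156200819-156200938, minus strand): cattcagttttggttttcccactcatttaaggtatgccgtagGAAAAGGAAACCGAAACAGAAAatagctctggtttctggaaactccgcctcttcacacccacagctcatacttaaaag
Rsad2 (chr12:26456453-26456582, minus strand): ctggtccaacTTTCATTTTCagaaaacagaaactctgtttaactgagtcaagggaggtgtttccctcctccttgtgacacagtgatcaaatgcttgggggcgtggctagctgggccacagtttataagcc
Gbp5 (chr3:142496759-142496933, plus strand): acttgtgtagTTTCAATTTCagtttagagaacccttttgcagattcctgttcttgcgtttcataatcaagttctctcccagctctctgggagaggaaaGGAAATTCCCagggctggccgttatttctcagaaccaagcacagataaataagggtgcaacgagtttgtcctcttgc
Cxcl10 (chr5:92348890-92349112, minus strand): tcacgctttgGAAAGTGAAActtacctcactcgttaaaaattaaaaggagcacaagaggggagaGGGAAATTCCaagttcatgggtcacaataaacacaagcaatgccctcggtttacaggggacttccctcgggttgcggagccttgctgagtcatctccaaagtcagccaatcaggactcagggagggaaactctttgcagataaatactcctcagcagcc
Il6 (chr5:30012994-30013113, plus strand): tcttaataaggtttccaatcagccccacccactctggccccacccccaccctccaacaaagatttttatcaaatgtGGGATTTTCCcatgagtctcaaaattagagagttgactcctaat
Il12b (chr11:44399943-44400062, plus strand): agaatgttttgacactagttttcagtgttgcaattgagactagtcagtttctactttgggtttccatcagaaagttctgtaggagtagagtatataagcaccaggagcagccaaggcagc
Ccr2 (chr9:124102063-124102182, plus strand): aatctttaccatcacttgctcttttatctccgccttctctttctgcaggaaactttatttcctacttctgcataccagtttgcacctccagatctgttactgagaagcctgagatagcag
Ifit1 held 2 matches to the response element, at 104 and 85 bases before the start (first base of the match). Isg15 held 3 overlapping matches on the minus strand of the promoter, between 78 and 57 bases before the start, and Rsad2 held 1 at 120 bases. Gbp5 and Cxcl10 each held 1 match to the response element and 1 to the NF-kappaB motif, and Il6 held the NF-kappaB motif alone, at 44 bases before the start. The upstream windows of Il12b and Ccr2 held neither motif in these letters. Over the 27025 genes with a RefSeq window of 300 bases, 3.99% held the response element, 1.63% the NF-kappaB motif and 0.0777% both, so a match is found in many genes that were not followed here and describes the sequence only. Of the 1853 genes higher over 6 libraries, 1465 had a window. In these, 8.46% held the response element and 3.07% the NF-kappaB motif, against 4.05% and 1.82% of the 8152 tested genes with a window. The 8 printed genes are thus examples and do not stand for the induced genes.

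Isg15, a ubiquitin-like protein coupled to others during infection, had 1508, 1506, 1378 and 1519 RPKM in dKO 6 h libraries, against 9.07, 432.4, 7.8 and 7.03 RPKM in dKO 0 h libraries. The 6 h libraries lay close together and above every 0 h library, of which replicate 2 was the highest. Its log2 change was 6.03 ± 1.14 (adjusted p = 0.00176) as labelled and 7.44 ± 0.10 (adjusted p = 1e-10) over 6 libraries. Ifit1, which binds viral RNA lacking a normal cap, had 657.3, 625.9, 573.3 and 873.8 RPKM in dKO 6 h libraries and 1.33, 103.7, 1.13 and 1.32 RPKM in dKO 0 h libraries, and changed by 8.46 ± 0.08 (adjusted p = 4.4e-11) over 6 libraries. Rsad2 (viperin) had 2027, 1972, 1847 and 2631 RPKM in dKO 6 h libraries, against 2.89, 231.8, 1.84 and 2.17 RPKM in dKO 0 h libraries, and changed by 9.46 ± 0.12 (adjusted p = 1e-10). In both genes replicate 2 of the 0 h group stood above the other 0 h libraries and below every 6 h library. Mx1, an antiviral GTPase, changed by 4.57 in log2 units over 6 libraries.

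Irf7, the transcription factor that amplifies interferon production, set the libraries apart in another way. It had 495.9, 578.3, 607.2 and 99.9 RPKM in dKO 6 h libraries, against 4.98, 6.00, 5.84 and 3.3 RPKM in dKO 0 h libraries. Replicate 2 of the 0 h group was not raised, and replicate 4 of the 6 h group was about as high as dKO cells labelled 2 h, of which the lower of the 2 libraries nearest to their own time had 76.5 RPKM. The log2 change was 6.07 ± 0.53 (adjusted p = 9e-05) as labelled and 6.78 ± 0.17 (adjusted p = 2.1e-09) over 6 libraries.

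Guanylate binding proteins and immunity GTPases, interferon-induced proteins that attack the vacuoles of intracellular microbes, were higher in 12 of 13 tested as labelled (median 3.60) and in 13 of 13 over 6 libraries (median 3.53). Members of these families are near copies of one another, so the split of reads among them is uncertain. Irgm1 had 232.5, 218.5, 220.8 and 232.5 RPKM in dKO 6 h libraries, against 13.0, 10.4, 11.7 and 14.0 RPKM in dKO 0 h libraries. Its log2 change of 4.16 ± 0.13 (adjusted p = 6.5e-07) as labelled hardly moved over 6 libraries, at 4.07. Gbp5 had 685.8, 665.2, 657.7 and 519.7 RPKM in dKO 6 h libraries and 16.8, 137.3, 20.8 and 15.2 RPKM in dKO 0 h libraries, again with no overlap. Iigp1 was low in replicate 4 and had 58.6, 64.6, 67.4 and 3.41 RPKM in dKO 6 h libraries, against 0.0773, 0.0852, 0.0498 and 0.106 RPKM in dKO 0 h libraries. Gbp4 changed by 3.64 ± 0.73 (adjusted p = 0.00228) as labelled and 4.21 ± 0.09 (adjusted p = 9.2e-10) over 6 libraries.

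Among 11 tested interferon and interferon regulatory factor genes, 4 were higher and 3 lower as labelled, and 6 higher and 4 lower over 6 libraries. Ifnb1, which encodes interferon beta, had 29.8, 21.9, 19.8 and 550.7 RPKM in dKO 6 h libraries, against 0.313, 692.0, 0.133 and 0.197 RPKM in dKO 0 h libraries. Replicate 4 at 6 h and replicate 2 at 0 h were both far above the rest, so the groups overlapped. The log2 change of 3.73 ± 2.18 (adjusted p = 0.159) was not called as labelled, and over 6 libraries it was 5.08 ± 0.17 (adjusted p = 8.5e-09). Irf1, an activator of MHC class I and interferon genes, changed by 3.12 ± 0.30 (adjusted p = 0.00013) as labelled and 3.33 ± 0.09 (adjusted p = 3e-09) over 6 libraries, and Irf8, a factor of dendritic cell identity, by 1.91 ± 0.27 (adjusted p = 0.00049) and 2.30 ± 0.11 (adjusted p = 6.7e-08). Irf4 was not called as labelled (log2 0.11, adjusted p = 0.748) and was higher over 6 libraries at 0.56 ± 0.09 (adjusted p = 0.0002). Ifngr1, a chain of the interferon gamma receptor, had 10.7, 11.1, 8.04 and 33.6 RPKM in dKO 6 h libraries, against 70.5, 72.7, 72.6 and 79.1 RPKM in dKO 0 h libraries, which did not overlap. It changed by -2.85 ± 0.12 (adjusted p = 3.5e-08) over 6 libraries, whereas the type I interferon receptor chain Ifnar2 was higher, at 0.73 ± 0.08 (adjusted p = 1.8e-05).

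**Figure D3:**
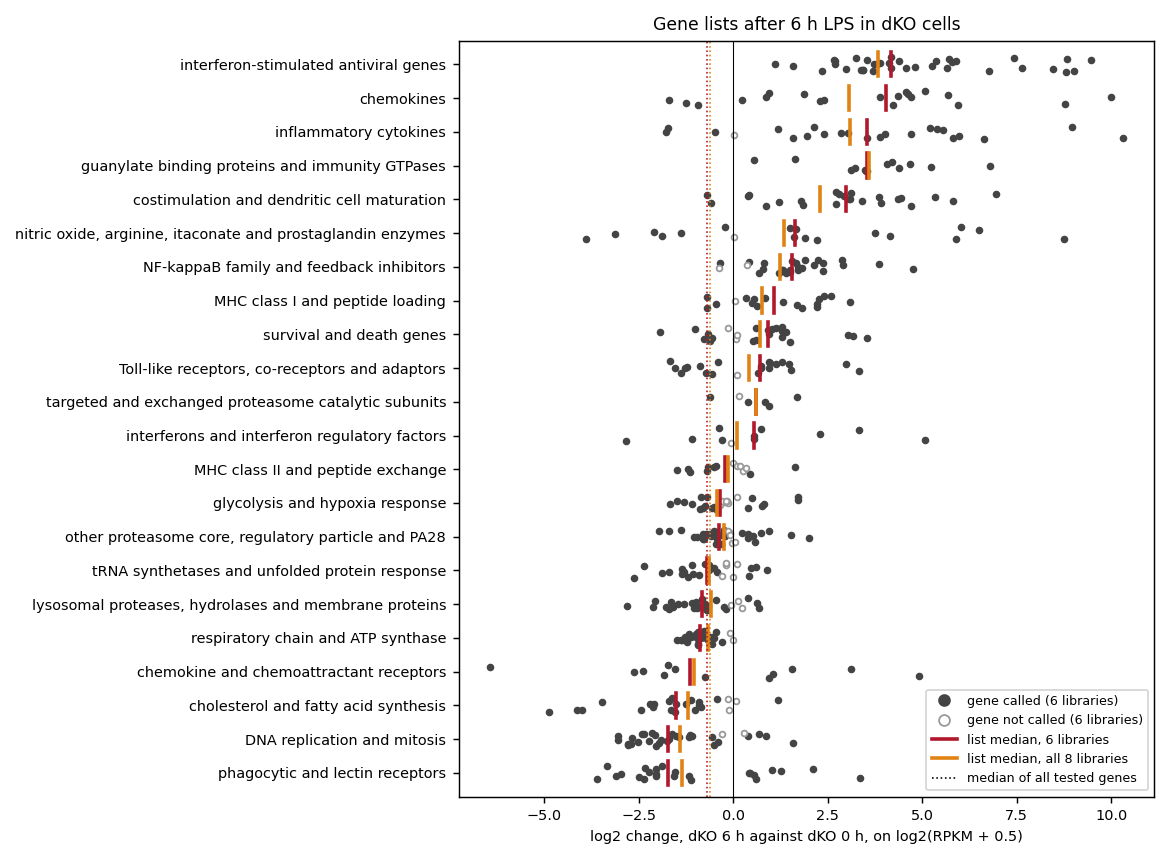
Log2 change of the members of 22 gene lists, dKO 6 h against dKO 0 h over 6 libraries, with called genes filled and lists ordered by their median. Red and orange bars are list medians over 6 libraries and over all 8 as labelled, and dotted lines are the medians of all tested genes (-0.71 and -0.61), to which the respiratory chain and lysosomal lists lie close.

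Costimulation and maturation genes, which let a dendritic cell prime T cells, were higher in 18 and lower in 2 of 24 tested as labelled (median 2.30), and higher in 22 and lower in 2 over 6 libraries (median 2.99). Cd40, the receptor for the T cell ligand CD154, had 413.5, 438.4, 468.0 and 105.3 RPKM in dKO 6 h libraries, against 3.52, 25.1, 3.9 and 2.02 RPKM in dKO 0 h libraries. The groups of Cd40 did not overlap, and its log2 change was 5.73 ± 0.72 (adjusted p = 0.00035) as labelled and 6.96 ± 0.18 (adjusted p = 2.6e-09) over 6 libraries. Cd80 and Cd86, the ligands of CD28, were higher at 3.05 ± 0.13 (adjusted p = 4.3e-08) and 2.72 ± 0.16 (adjusted p = 2.4e-07) over 6 libraries. Ccr7 had 879.1, 835.4, 1188 and 224.6 RPKM in dKO 6 h libraries, against 101.6, 274.2, 172.0 and 77.8 RPKM in dKO 0 h libraries. Its groups overlapped because replicate 4 was below the 0 h value of replicate 2, and the log2 change was 2.25 ± 0.54 (adjusted p = 0.00562) as labelled and 3.10 ± 0.26 (adjusted p = 2.6e-06) over 6 libraries.

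The other maturation genes ranged widely in size. Fscn1, an actin bundling protein of mature dendritic cells, changed by 4.37 ± 0.22 (adjusted p = 9.2e-08) over 6 libraries, Cd83 by 3.08 ± 0.24 (adjusted p = 1.6e-06), and Cd274, which encodes the inhibitory ligand PD-L1, by 2.71 ± 0.09 (adjusted p = 1.1e-08). Cd200, whose product restrains myeloid cells, had 120.1, 120.1, 136.6 and 29.2 RPKM in dKO 6 h libraries, against 1.78, 6.09, 1.77 and 1.69 RPKM in dKO 0 h libraries. Its groups did not overlap, and it changed by 4.90 ± 0.53 (adjusted p = 0.0002) as labelled. Il15ra, which presents interleukin 15 to other cells, changed by 4.44 ± 0.13 (adjusted p = 5.3e-09) and Cd70, the ligand of CD27, by 5.34 ± 0.16 (adjusted p = 5.3e-09) over 6 libraries.

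MHC class I and peptide loading genes were higher in 11 and lower in 2 of 18 tested as labelled, and higher in 14 and lower in 3 over 6 libraries (median 1.07). Nlrc5, the transactivator of MHC class I genes, had 74.9, 79.3, 79.4 and 13.4 RPKM in dKO 6 h libraries, against 8.7, 6.28, 9.96 and 7.76 RPKM in dKO 0 h libraries. The groups of Nlrc5 did not overlap, and its log2 change was 3.08 ± 0.09 (adjusted p = 5.8e-09) over 6 libraries. Tap1, which carries peptides into the endoplasmic reticulum, had 211.9, 237.2, 217.7 and 120.3 RPKM in dKO 6 h libraries and 71.0, 41.8, 77.1 and 60.4 RPKM in dKO 0 h libraries, again with no overlap. It changed by 1.68 ± 0.10 (adjusted p = 3e-07), and tapasin (Tapbp) changed by 2.20 ± 0.10 (adjusted p = 7.4e-08). The classical heavy chain H2-K1 and beta-2 microglobulin (B2m), already abundant, moved less, by 0.53 ± 0.13 (adjusted p = 0.00346) and 0.49 ± 0.11 (adjusted p = 0.00238) over 6 libraries. H2-D1 was not called as labelled (0.32, adjusted p = 0.106) and was called over 6 libraries at 0.34 ± 0.13 (adjusted p = 0.0299). Heavy chain genes are near copies of one another, so their split of reads is uncertain, also for H2-T24 (2.58 over 6 libraries).

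MHC class II and peptide exchange genes did not rise as a group on the RPKM scale. Of 14 tested, 1 was higher and 6 lower as labelled, and 2 were higher and 7 lower over 6 libraries (median -0.23). These shares lower were below the 52.1% and 67.9% of all genes tested. Median-of-ratios scaling over 6 libraries turned this list to 9 higher and 3 lower. H2-DMa, part of the peptide exchanger of class II, had 187.9, 201.4, 190.0 and 308.7 RPKM in dKO 6 h libraries, against 576.3, 382.5, 515.9 and 529.5 RPKM in dKO 0 h libraries. The groups of H2-DMa did not overlap, and its log2 change was -1.48 ± 0.08 (adjusted p = 1.6e-07) on the RPKM scale and -0.71 with median-of-ratios scaling. The thiol reductase gene Ifi30 changed by -1.20 ± 0.09 (adjusted p = 1.1e-06) and March1, a ubiquitin ligase that removes class II from the surface, by -1.15 ± 0.09 (adjusted p = 1.4e-06). The class II transactivator gene Ciita was not called as labelled (log2 0.43, adjusted p = 0.253) and was 0.43 ± 0.12 (adjusted p = 0.00891) over 6 libraries. H2-Eb2 was the 1 member higher as labelled, at 1.35 ± 0.34 (adjusted p = 0.00664), with levels below 10 RPKM in every library.

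NF-kappaB family genes and their feedback inhibitors were higher in 16 and lower in 0 of 27 as labelled (median 1.24), and higher in 24 and lower in 1 over 6 libraries (median 1.56). Nfkbiz, which encodes the atypical regulator IkappaB-zeta, had 86.3, 85.2, 89.6 and 250.5 RPKM in dKO 6 h libraries, against 2.94, 634.0, 3.15 and 2.19 RPKM in dKO 0 h libraries. Its highest value was in replicate 2 of the 0 h group, and the change was 3.23 ± 1.55 (adjusted p = 0.0935) as labelled, which is not called, and 4.76 ± 0.11 (adjusted p = 1.7e-09) over 6 libraries. Tnfaip3 (A20) gave the same picture, at 1.96 ± 0.99 (adjusted p = 0.108) as labelled and 2.89 ± 0.10 (adjusted p = 1.2e-08) over 6 libraries. Nfkbia had 795.3, 793.1, 832.0 and 935.4 RPKM in dKO 6 h libraries and 181.0, 1299.6, 225.9 and 148.5 RPKM in dKO 0 h libraries. Replicate 2 of the 0 h group was again above every 6 h library, and the log2 change was 2.14 ± 0.14 (adjusted p = 4.8e-07) over 6 libraries. The phosphatase gene Dusp2 and the RNase gene Zc3h12a changed by 3.85 and 1.91. Cish, an inhibitor of cytokine signalling, was the 1 member lower over 6 libraries, at -0.35 ± 0.11 (adjusted p = 0.0126), and was 0.42 with median-of-ratios scaling.

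The LPS receptor itself fell. Tlr4 had 12.7, 11.3, 13.0 and 24.1 RPKM in dKO 6 h libraries, against 40.9, 59.9, 36.7 and 43.5 RPKM in dKO 0 h libraries. The groups of Tlr4 did not overlap, and its log2 change was -1.58 ± 0.25 (adjusted p = 0.00084) as labelled and -1.67 ± 0.09 (adjusted p = 1.7e-07) over 6 libraries. Its downstream kinase gene Irak1 fell by a like amount, at -1.56 ± 0.09 (adjusted p = 2.4e-07) over 6 libraries. Tlr3, a sensor of double-stranded RNA, had 14.8, 14.2, 16.3 and 2.38 RPKM in dKO 6 h libraries, against 1.35, 1.06, 1.38 and 1.73 RPKM in dKO 0 h libraries, with replicate 4 just above the 0 h group. It changed by 2.45 ± 0.52 (adjusted p = 0.00288) and Tlr1 by 2.93 ± 0.29 (adjusted p = 0.00014) as labelled. Tlr2 was not called as labelled (log2 0.32, adjusted p = 0.658) and was 0.65 ± 0.11 (adjusted p = 0.00045) over 6 libraries. Among 22 tested Toll-like receptors, co-receptors and adaptors, 8 were higher and 7 lower as labelled, and 12 higher and 9 lower over 6 libraries. Of all genes tested, 11.5% were higher and 52.1% lower as labelled, and 18.3% and 67.9% over 6 libraries.

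Receptors for chemokines and other chemoattractants changed in both directions. Of 12 tested, 2 were higher and 6 lower as labelled, and 5 were higher and 7 lower over 6 libraries, against 52.1% and 67.9% lower among all genes tested, so the list was not lower more often than genes in general. Under median-of-ratios scaling the counts were 3 higher and 3 lower as labelled, and 5 higher and 6 lower over 6 libraries. Beside Ccr2, Ccr1 had 15.8, 13.2, 9.84 and 35.3 RPKM in dKO 6 h libraries, against 84.4, 106.2, 67.6 and 94.5 RPKM in dKO 0 h libraries. The groups of Ccr1 did not overlap, and its log2 change was -2.63 ± 0.17 (adjusted p = 5.3e-07) over 6 libraries. Cmklr1, the chemerin receptor, changed by -2.38 ± 0.09 (adjusted p = 1.7e-08). C5ar1, the receptor of complement C5a, had 3.88, 3.76, 3.85 and 80.0 RPKM in dKO 6 h libraries, against 13.1, 96.8, 15.9 and 16.4 RPKM in dKO 0 h libraries. Replicate 4 and replicate 2 each stood above the other 3 libraries of their group, and C5ar1 was not called as labelled (log2 -1.45, adjusted p = 0.226), and over 6 libraries it changed by -1.85 ± 0.10 (adjusted p = 1.9e-07). Ccrl2, a chemerin-binding receptor, was higher by 4.92 ± 0.15 (adjusted p = 5.5e-09) over 6 libraries and was not called as labelled (adjusted p = 0.064).

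Phagocytic and lectin receptors, which take up microbes and debris, were higher in 6 and lower in 16 of 24 as labelled (median -1.35), and higher in 8 and lower in 16 over 6 libraries (median -1.73). The share lower over 6 libraries was close to the 67.9% of all genes tested. With median-of-ratios scaling over 6 libraries the counts were again 8 and 16, where 37.5% of all genes were lower. The mannose receptor gene Mrc1 had 15.2, 13.1, 11.4 and 70.7 RPKM in dKO 6 h libraries, against 123.3, 92.0, 92.7 and 143.1 RPKM in dKO 0 h libraries, and changed by -3.12 ± 0.16 (adjusted p = 1.1e-07) over 6 libraries. Clec10a had 13.3, 12.8, 8.15 and 113.9 RPKM in dKO 6 h libraries and 149.5, 142.5, 126.6 and 151.4 RPKM in dKO 0 h libraries. In both genes replicate 4 was several times higher than the other dKO 6 h libraries and lay below the 0 h group. The beta-glucan receptor gene Clec7a changed by -2.37 ± 0.08 (adjusted p = 1.4e-08), the inhibitory Fc receptor gene Fcgr2b by -2.06 ± 0.08 (adjusted p = 2.3e-08) and Trem2 by -2.05 ± 0.09 (adjusted p = 4.5e-08). Clec4e (Mincle), a sensor of mycobacterial lipid, went the other way, at 3.36 ± 0.17 (adjusted p = 9.4e-08) over 6 libraries.

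Enzymes that make inflammatory mediators were higher in 11 and lower in 5 of 18 as labelled, and higher in 11 and lower in 6 over 6 libraries. The shares over all genes tested were 11.5% higher and 52.1% lower as labelled, and 18.3% and 67.9% over 6 libraries. Nos2, the inducible nitric oxide synthase, had 683.3, 600.4, 528.7 and 52.7 RPKM in dKO 6 h libraries, against 9.16, 12.1, 6.93 and 3.5 RPKM in dKO 0 h libraries. The groups did not overlap, the lowest 6 h value was in replicate 4, and the log2 change was 5.40 ± 0.76 (adjusted p = 0.00051) as labelled and 6.51 ± 0.27 (adjusted p = 3.3e-08) over 6 libraries. Arg1, which uses the same substrate, arginine, had 80.0, 58.0, 24.1 and 175.4 RPKM in dKO 6 h libraries and 281.0, 267.4, 138.5 and 235.6 RPKM in dKO 0 h libraries. Replicate 4 lay within the 0 h range, and Arg1 changed by -2.10 ± 0.40 (adjusted p = 0.00079) over 6 libraries. The 2 cyclooxygenase genes moved apart. Ptgs2, the inducible form, had 496.7, 397.2, 435.4 and 201.3 RPKM in dKO 6 h libraries, against 0.882, 253.6, 0.298 and 0.456 RPKM in dKO 0 h libraries. Its groups overlapped only because replicate 2 at 0 h lay above replicate 4 at 6 h. Ptgs1 had 1.62, 1.69, 1.00 and 8.65 RPKM in dKO 6 h libraries, against 29.3, 19.0, 19.7 and 38.3 RPKM in dKO 0 h libraries, which did not overlap. Over 6 libraries Ptgs2 rose by 8.76 ± 0.18 (adjusted p = 9.2e-10) and Ptgs1 changed by -3.90 ± 0.23 (adjusted p = 2.9e-07). Alox5, the first enzyme of leukotriene synthesis, changed by -3.14 ± 0.16 (adjusted p = 1.2e-07). Irg1, which makes itaconate, had 1209.8, 1249.8, 961.8 and 2221 RPKM in dKO 6 h libraries and 17.4, 1136, 22 and 16.3 RPKM in dKO 0 h libraries, where replicate 2 lay within the 6 h range. The histamine enzyme gene Hdc and the sterol hydroxylase gene Ch25h changed by 6.02 and 3.75 over 6 libraries.

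Lipid synthesis and cell division genes fell on both scales. The shares lower of all genes tested, to set beside the counts, were 52.1% as labelled and 67.9% over 6 libraries. With median-of-ratios scaling over 6 libraries that share was 37.5%. Of 24 cholesterol and fatty acid synthesis genes, 1 was higher and 18 lower as labelled (median -1.20), and 1 was higher and 20 lower over 6 libraries (median -1.53). With median-of-ratios scaling over 6 libraries, 5 were higher and 16 lower. Dhcr7, the last step of cholesterol synthesis, had 0.244, 0.409, 0.374 and 2.4 RPKM in dKO 6 h libraries, against 14.1, 5.82, 12.4 and 16.8 RPKM in dKO 0 h libraries. The groups of Dhcr7 did not overlap, and its log2 change was -3.39 ± 0.47 (adjusted p = 0.00047) as labelled and -4.14 ± 0.14 (adjusted p = 1.1e-08) over 6 libraries. Fasn, the fatty acid synthase gene, changed by -3.49 ± 0.09 (adjusted p = 3e-09), and Lss by -2.22 ± 0.10 (adjusted p = 7.2e-08). Idi1 was the member called higher, at 1.03 ± 0.21 (adjusted p = 0.00232) as labelled. Of 32 DNA replication and mitosis genes, 1 was higher and 23 lower as labelled (median -1.42), and 4 were higher and 26 lower over 6 libraries (median -1.72), with 7 and 22 there under median-of-ratios scaling. Birc5, the gene of survivin, had 0.93, 0.67, 0.549 and 2.17 RPKM in dKO 6 h libraries, against 11.2, 6.5, 7.41 and 10.3 RPKM in dKO 0 h libraries, which did not overlap, and changed by -3.05 ± 0.18 (adjusted p = 2.4e-07) over 6 libraries. Mcm2 and Mcm6 of the replicative helicase and the mitotic kinase gene Aurka changed by -2.41, -1.90 and -2.15, while Tyms was the 1 member higher as labelled, at 1.33 ± 0.29 (adjusted p = 0.00345).

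Respiratory chain genes were mostly lower on the RPKM scale, while glycolysis genes were split. For comparison, 52.1% of all tested genes were lower as labelled and 67.9% over 6 libraries. None of 30 respiratory chain and ATP synthase genes was higher and 27 were lower as labelled (median -0.67), and 0 were higher and 28 lower over 6 libraries (median -0.87). Median-of-ratios scaling over 6 libraries gave 6 higher and 10 lower, where 37.5% of all genes were lower. On that scale the respiratory list was thus not lower more often than genes in general. Sdhb of complex II had 29.8, 30.9, 32.7 and 43.3 RPKM in dKO 6 h libraries, against 72.8, 59.6, 77.2 and 77.6 RPKM in dKO 0 h libraries, with no overlap. Ndufv1, Uqcrc1 and Cyc1 changed by -1.29, -1.17 and -1.13 over 6 libraries. Glycolysis and hypoxia response genes were higher in 3 and lower in 10 of 25 as labelled, and higher in 6 and lower in 12 over 6 libraries (median -0.36). In both fits they were lower less often than all tested genes. This list turned to 13 higher and 3 lower over 6 libraries with median-of-ratios scaling. Within that list the hexokinase gene Hk3 rose by 1.70 ± 0.09 (adjusted p = 1.5e-07), the sugar transporter gene Slc2a6 by 1.70 ± 0.14 (adjusted p = 2.2e-06) and Pfkp by 0.76 ± 0.08 (adjusted p = 1.4e-05), while Gpi1 and Pdk1 changed by -1.49 ± 0.15 (adjusted p = 9.2e-06) and -1.69 ± 0.18 (adjusted p = 1.2e-05) over 6 libraries.

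Lysosomal genes were higher in 2 and lower in 20 of 29 as labelled (median -0.60), and higher in 3 and lower in 23 over 6 libraries (median -0.83). Among all genes tested, 52.1% were lower as labelled and 67.9% over 6 libraries. With median-of-ratios scaling over 6 libraries 9 lysosomal genes were higher and 10 lower, where 37.5% of all genes were lower. On that scale the list was thus not lower more often than genes in general. Gusb had 14.3, 12.3, 13.8 and 43.0 RPKM in dKO 6 h libraries, against 89.8, 51.1, 93.4 and 108.9 RPKM in dKO 0 h libraries. The groups of Gusb did not overlap, and its log2 change was -2.81 ± 0.10 (adjusted p = 1.1e-08) over 6 libraries. Npc1, Atp6v0d2 and Hexa changed by -2.12, -2.08 and -1.65, and the abundant Psap and Ctsd by -1.47 and -1.10. The cholesterol carrier gene Npc2 and the protease gene Ctsl were higher as labelled, at 0.60 ± 0.16 (adjusted p = 0.00902) and 0.65 ± 0.12 (adjusted p = 0.00174).

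Genes of tRNA charging and the unfolded protein response were higher in 2 and lower in 14 of 26 as labelled (median -0.64), and higher in 4 and lower in 17 over 6 libraries (median -0.70), the level of all genes. The shares lower were close to the 52.1% as labelled and 67.9% over 6 libraries of all genes tested. With median-of-ratios scaling over 6 libraries 8 were higher and 10 lower, again close to the 37.5% lower of all genes. Herpud1 had 14.3, 14.6, 19.7 and 22.8 RPKM in dKO 6 h libraries, against 75.8, 58.4, 96.1 and 85.2 RPKM in dKO 0 h libraries, with no overlap. It changed by -2.38 ± 0.13 (adjusted p = 2.1e-07) over 6 libraries, and Xbp1, a transcription factor of that response, by -1.88 ± 0.09 (adjusted p = 8.9e-08). The chaperone gene Hspa5 had 411.8, 345.0, 340.1 and 358.7 RPKM in dKO 6 h libraries, against 192.1, 238.1, 181.8 and 211.6 RPKM in dKO 0 h libraries. All 6 h values were above all 0 h values, and the log2 change was 0.82 ± 0.13 (adjusted p = 0.00091) as labelled. The tRNA synthetase genes Iars and Eprs changed by -2.63 and -1.35 over 6 libraries.

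Among 25 survival and death genes, 10 were higher and 3 lower as labelled (median 0.72), and 16 higher and 6 lower over 6 libraries (median 0.92). All genes tested gave 11.5% higher and 52.1% lower as labelled, and 18.3% and 67.9% over 6 libraries. Casp4, the murine sensor of LPS inside the cell, had 136.5, 134.2, 146.7 and 59.0 RPKM in dKO 6 h libraries, against 11.1, 23.8, 12.2 and 11.5 RPKM in dKO 0 h libraries. The groups of Casp4 did not overlap, and its log2 change was 2.97 ± 0.34 (adjusted p = 0.00023) as labelled and 3.53 ± 0.07 (adjusted p = 9.2e-10) over 6 libraries. Cflar (cFLIP), which blocks caspase 8, and Mlkl, the effector of necroptosis, changed by 3.17 ± 0.07 (adjusted p = 1.3e-09) and 3.03 ± 0.15 (adjusted p = 8.8e-08) over 6 libraries. Bcl2a1b, one of several near-identical survival genes whose reads cannot be told apart with certainty, changed by 1.40 ± 0.08 (adjusted p = 2.3e-07). The pro-apoptotic gene Bax was lower, at -1.02 ± 0.10 (adjusted p = 1.1e-05) over 6 libraries, and -0.25 with median-of-ratios scaling.

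The 1 h and 2 h dKO libraries that lay nearest to their own time (3 at 1 h and 2 at 2 h) place these values in a course. Tnf had 5942 to 6018 RPKM at 1 h, 3386 to 3917 RPKM at 2 h and 690.8 to 824.2 RPKM at 6 h over the libraries nearest to their time, and thus was highest at the first time after LPS. Ifnb1 had 713.9 to 826.0 RPKM at 1 h and 912.0 to 935.2 RPKM at 2 h, and by 6 h had 19.8 to 29.8 RPKM. Cxcl10 had 1256 to 1561 RPKM at 1 h, 3785 to 3792 RPKM at 2 h and 2654 to 3321 RPKM at 6 h. The highest values of these 3 genes fell at 1 h or 2 h. Cd40 had 31.1 to 31.9 RPKM at 1 h, 83.7 to 139.0 RPKM at 2 h and 413.5 to 468.0 RPKM at 6 h. Psmb9 had 67.4 to 76.9 RPKM at 1 h, 93.0 to 105.9 RPKM at 2 h and 260.6 to 293.1 RPKM at 6 h, so it was highest at 6 h, as was Cd40. C5ar1 moved both ways, with 13.1 to 16.4 RPKM at 0 h, 104.8 to 131.6 RPKM at 1 h, 65.3 to 78.0 RPKM at 2 h and 3.76 to 3.88 RPKM at 6 h. Of the 922 genes higher by at least 2-fold over 6 libraries, 712 had their highest mean at 6 h, 152 at 2 h and 58 at 1 h. Of the 3805 lower by at least 2-fold, 2657 had their lowest mean at 6 h, 1094 at 2 h and 54 at 1 h. As labelled, 708 of 754 higher genes had it at 6 h, 2 at 2 h and 44 at 1 h. For 3099 lower genes as labelled, the counts were 2959 at 6 h, 32 at 2 h and 108 at 1 h. All these genes were chosen by their change from 0 h to 6 h. That choice favours an extreme at 6 h and leaves out genes that had returned by then, so the counts describe the chosen genes only.

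**Figure D4:**
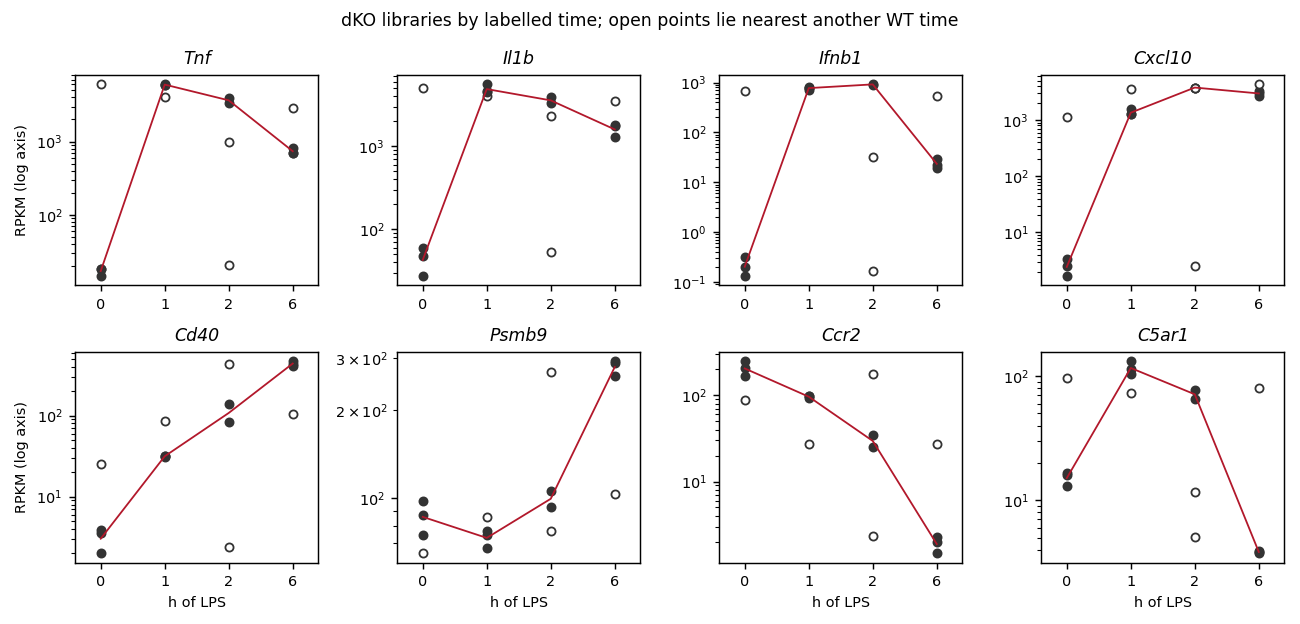
RPKM on a log axis of 8 genes in the 16 dKO libraries by labelled hours of LPS (0, 1, 2 and 6 h, evenly spaced), with open points for the 5 libraries that lay nearest to another WT time and a line through the geometric means of the filled points. Tnf, Il1b and C5ar1 peak at 1 h and Ifnb1 at 2 h, Cd40 and Psmb9 are highest at 6 h, and the open points at 0 h and 6 h lie near the filled points of 1 h and 2 h.

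The response of dKO cells was set against that of WT cells as a difference of log2 changes, dKO minus WT, over 10985 genes tested in 16 libraries, so list sizes differ slightly from those above. As labelled, 99 genes had a larger value in dKO (0.901%) and 61 a smaller one (0.555%). Without the 2 doubtful dKO libraries, 1041 were larger (9.48%) and 1144 smaller (10.4%), and with median-of-ratios scaling as well, 1321 (12%) and 848 (7.72%). Most of the response was shared in direction: of the 922 genes at least 2-fold higher in dKO cells over 6 libraries, 912 were called higher in WT cells, where 18.7% of all tested genes were. Of the 3805 lower genes, 3773 were called lower in WT cells, where 69.9% of all tested genes were. The share of aligned bases on ERCC spike-in controls was 0.0943 to 0.127% in the 8 dKO libraries, against 0.133 to 0.328% in the 8 WT libraries, and its part in the differences was not tested.

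Interferon-stimulated antiviral genes were the list with the most members larger in dKO cells. Without the 2 libraries, 35 of 36 had a larger response in dKO cells (median difference 1.03 in log2 units), and 36 of 36 did with median-of-ratios scaling. As labelled, 3 of 36 were called (median 0.71). The dKO and WT levels of the list lay close at 6 h and apart at 0 h. Its median dKO minus WT log2 level was 0.15 at 6 h and -0.99 at 0 h, against -0.13 and -0.06 for all genes, and all 36 genes had a lower mean log2 level in dKO than in WT libraries at 0 h. Irf7 had 495.9 to 607.2 RPKM in dKO and 438.9 to 569.0 RPKM in WT libraries at 6 h, which overlapped. It had 3.3 to 5.84 RPKM in dKO and 18.1 to 19.5 RPKM in WT libraries at 0 h, which did not. Rtp4, an interferon-induced chaperone of receptors, had 82.9 to 91.2 RPKM in dKO and 72.2 to 75.4 RPKM in WT libraries at 6 h, and 3.01 to 5.23 RPKM in dKO and 17.4 to 24.6 RPKM in WT libraries at 0 h. Its difference was 2.00 ± 0.31 (adjusted p = 0.00414) as labelled and 2.35 ± 0.20 (adjusted p = 2.5e-06) without the 2. Cmpk2 differed at both times, with 852.3 to 963.4 RPKM in dKO and 344.3 to 441.6 RPKM in WT libraries at 6 h, and 1.1 to 1.66 RPKM in dKO and 2.98 to 3.8 RPKM in WT libraries at 0 h.

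Guanylate binding proteins and immunity GTPases were larger in dKO cells in 13 of 13 without the 2 libraries (median difference 0.98) and in 2 of 13 as labelled. Irgm1 had 218.5 to 232.5 RPKM in dKO and 169.7 to 180.1 RPKM in WT libraries at 6 h, and 11.7 to 14.0 RPKM in dKO and 22.1 to 25.8 RPKM in WT libraries at 0 h. Its difference was 1.32 ± 0.13 (adjusted p = 6.9e-05) as labelled. Cytokines showed no such single direction, with 7 larger and 4 smaller of 24 without the 2 libraries and 0 called as labelled. Il23a was smaller in dKO cells, at -0.85 ± 0.18 (adjusted p = 0.00343), and Tnf larger, at 0.75 ± 0.16 (adjusted p = 0.00497), without the 2 libraries. Of 30 respiratory chain genes, the difference was called positive in 0 and negative in 5 without the 2 libraries. Of 25 glycolysis and hypoxia genes, it was called positive in 11 and negative in 0. As labelled, 0 of these 30 and 1 of these 25 were called. The median log2 change in WT cells was -0.81 for the respiratory list and -0.86 for the glycolysis list. A positive difference in these lists can thus stand for a smaller fall in dKO cells.

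Among genes whose difference was called both as labelled and without the 2 libraries, the 5 with the highest difference were Nts, Rtp4, Epcam, Rnase6 and Cd300e. The 5 with the lowest were Ccl1, Miip, Asap2, Cd1d1 and Chsy1. Nts, which encodes the peptide neurotensin, had 11.5 to 13.9 RPKM in dKO and 1.6 to 2.76 RPKM in WT libraries at 6 h and was near 0 in both genotypes at 0 h. Its difference was 2.41 ± 0.19 (adjusted p = 1.1e-06) without the 2 libraries. Ccl1 went the other way, with 0.776 to 1.49 RPKM in dKO and 3.8 to 11.1 RPKM in WT libraries at 6 h. Cd1d1, which presents lipids to NKT cells, had 18.5 to 22.3 RPKM in dKO and 40.3 to 67.4 RPKM in WT libraries at 6 h, and 30.8 to 35.5 RPKM in dKO and 27.0 to 29.5 RPKM in WT libraries at 0 h. On the RPKM scale it thus fell with LPS in dKO cells, at -0.69, and rose in WT cells, at 0.87. With median-of-ratios scaling its dKO change was 0.07. Epcam was below 1 RPKM in every dKO library and entered this test through the WT libraries, and Cd300e was near 1 RPKM or below in dKO cells. With 0.5 added to each value, a fall in dKO cells is limited by these low levels, so their place among the highest differences follows in large part from their WT level at 0 h and does not show a larger response of dKO cells. Epcam, Rnase6 and Cd300e fell in WT cells, by log2 changes of -2.96, -1.60 and -3.52. At 0 h, Rnase6 had 2.26 to 3.96 RPKM in dKO and 28.5 to 33.1 RPKM in WT libraries. Cd300e had 0.992 to 1.29 RPKM in dKO and 8.96 to 16.8 RPKM in WT libraries at that time, and Epcam had 0.344 to 0.636 and 4.91 to 10.2 RPKM, so the genotypes did not overlap without LPS in any of the 3 genes. Ctsl had 336.9 to 398.5 RPKM in dKO and 61.8 to 110.2 RPKM in WT libraries at 6 h, and 214.0 to 261.3 RPKM in dKO and 109.3 to 132.0 RPKM in WT libraries at 0 h. Its difference of 1.06 ± 0.20 (adjusted p = 0.00212) thus came with a higher level in dKO cells at both times.

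**Figure D5:**
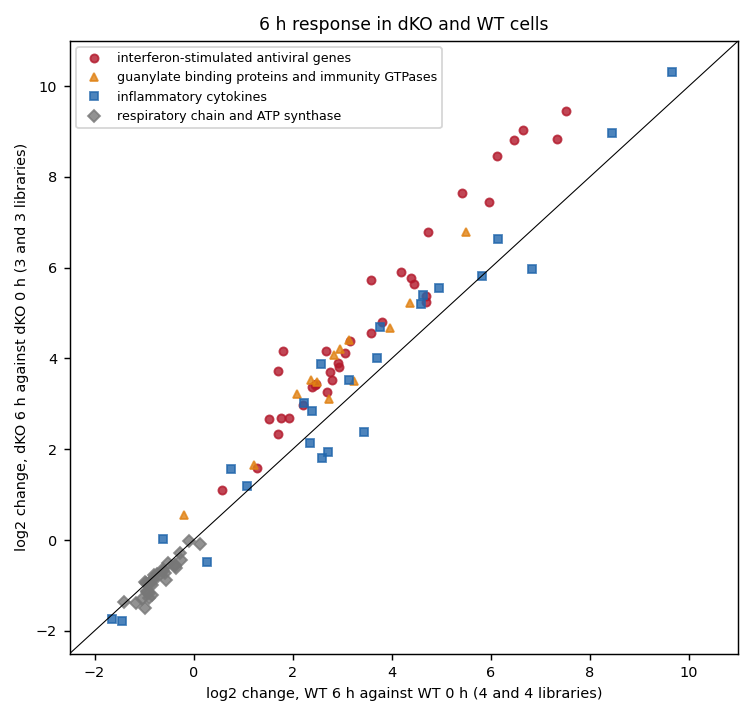
Log2 change of the members of 4 gene lists after 6 h of LPS, with WT cells (4 and 4 libraries) on the x axis and dKO cells (3 and 3 libraries, without the 2 doubtful ones) on the y axis, and the diagonal of equal change drawn. Interferon-stimulated genes and guanylate binding proteins lie above the diagonal, and cytokines lie on both sides of it.

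Markers of cell types were followed beside these lists, since fewer cells of a type and less RNA per cell cannot be told apart in bulk samples. Dendritic cell markers summed to 10616 to 11464 RPKM over 17 genes in dKO 6 h libraries and 9278 to 12022 RPKM in dKO 0 h libraries. The list includes the MHC class II genes H2-Ab1 and Cd74, so the sum by itself does not show dendritic cell identity. Of 15 tested, 3 were higher and 6 lower as labelled, and 4 higher and 6 lower over 6 libraries. Among all genes tested, 52.1% were lower as labelled and 67.9% over 6 libraries. Median-of-ratios scaling turned this list to 7 higher and 2 lower as labelled, and 8 higher and 5 lower over 6 libraries. On that scale 24.7% and 37.5% of all genes were lower. Itgax, which encodes CD11c, had 171.6, 185.5, 170.4 and 354.1 RPKM in dKO 6 h libraries, against 518.1, 425.8, 521.2 and 527.8 RPKM in dKO 0 h libraries, and thus was lower after LPS but present in each library. Its log2 change was -1.57 ± 0.07 (adjusted p = 7.5e-08) over 6 libraries. Macrophage markers summed to 968 to 1692 RPKM in dKO 6 h libraries, against 1448 to 2281 RPKM in dKO 0 h libraries. Of 13 tested, 2 were higher and 7 lower as labelled, and 3 higher and 9 lower over 6 libraries, shares close to the 52.1% and 67.9% lower among all genes tested. Under median-of-ratios scaling the counts were 4 higher and 3 lower as labelled, and 4 higher and 6 lower over 6 libraries. Csf1r, the receptor of M-CSF, had 36.9, 38.6, 31.4 and 170.6 RPKM in dKO 6 h libraries, against 339.7, 246.7, 363.3 and 380.8 RPKM in dKO 0 h libraries, with no overlap. C1qa, a complement component gene, changed by -1.95 ± 0.21 (adjusted p = 1.6e-05) over 6 libraries. The part of macrophages in the levels of the phagocytic and lectin receptors was not tested.

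Neutrophil markers summed to 464 to 525 RPKM in dKO 6 h libraries, against 214 to 460 RPKM in dKO 0 h libraries. Of these, Lcn2, also an LPS-induced gene of other myeloid cells, had 213.7, 229.7, 225.3 and 122.2 RPKM in dKO 6 h libraries and 10.1, 47.9, 10.6 and 8.04 RPKM in dKO 0 h libraries. The 8 B cell markers summed to at most 1.62 RPKM in dKO 6 h and 2.21 RPKM in dKO 0 h libraries. The 11 T and NK cell markers summed to at most 6.17 RPKM in dKO 6 h and 1.39 RPKM in dKO 0 h libraries, and none of either list reached the level for testing. Within the T and NK cell list, Lck, a kinase of T cells, had 3.29, 3.23, 4.00 and 0.946 RPKM in dKO 6 h libraries and 0, 0.142, 0.119 and 0.167 RPKM in dKO 0 h libraries, while Cd3e of the T cell receptor was listed at 0 in 7 of the 8 libraries. Plasmacytoid dendritic cell markers were higher in 2 of 3 tested as labelled, the interferon-induced Bst2 and the transcription factor gene Tcf4. Siglech, a surface marker of these cells, was at most 0.0501 RPKM. Mast cell, basophil and eosinophil markers were higher in 0 and lower in 1 of 7 as labelled and higher in 4 and lower in 1 over 6 libraries. The stromal and endothelial list was higher through Kdr, a vascular growth factor receptor gene, which had 66.1, 59.5, 69.1 and 14.1 RPKM in dKO 6 h libraries, against 4.24, 2.98, 5.62 and 4.81 RPKM in dKO 0 h libraries.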

How the data were processed

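Each library came from 4 µg of total RNA of one sample. The authors deposited 1 table per library with an RPKM value per gene and a whole-number signal per gene, read here as aligned bases. CASAVA 1.8.2 and the mouse build mm9 are named in the submitters' processing notes. Aligner settings, the annotation and the rule that assigned reads to genes are not given in the sources used here. The deposited signal gave the depth. The 92 ERCC spike-ins were set aside, and the 23 entries that shared 9 symbols were kept as separate entries.

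Genes with at least 1 RPKM in at least 4 of the libraries compared were tested with limma 3.58.1 in R 4.3.3 on log2(RPKM + 0.5), with an intensity trend and Benjamini-Hochberg adjustment over all genes tested. A gene was called at an adjusted p below 0.05. The comparison between genotypes was an interaction of genotype and time over 16 libraries. The code was tested on simulated data. Residual degrees of freedom were 6 as labelled and 4 over 6 libraries. Replicate numbers were not used as pairs: 2 of 4 same-numbered dKO pairs, and 2 of 4 WT pairs, deviated together at a correlation over 0.1.

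The comparison and the gene lists were chosen with earlier results of these data known. Genes were named by fixed rules: the 12 highest and 12 lowest log2 changes called in both fits, without overlap over 6 libraries and with a mean of at least 5 RPKM, up to 4 members of each list with the smallest adjusted p, the 6 genes that moved most between fits, and the 5 highest and 5 lowest differences between genotypes. Unnamed loci were passed over. Further list members were named where a statement needed them, after their values were seen, and some genes that these rules cover are not reported here. Alternatives covered the pseudocount, the filter, scaling between libraries, the replicate block, the libraries in the fit and leaving out each library. Promoter sequences came from RefSeq tables of GRCm38.p6, matched by symbol for 8152 of the 10146 tested genes, and no coordinates were converted between builds.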

Additional observations from a re-analysis of the deposited data

Results flagged for a closer look

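In 172 genes followed one by one, the highest and the lowest of the 4 libraries of a group were compared with the rest of their group by the gap to the nearest library over the whole range (Dixon's criterion at its critical value for 4 libraries). Chance alone passes this in about 1 in 20 groups when genes are picked without regard to the libraries. Many of these genes were named by their adjusted p over 6 libraries or by their move between fits. That choice favours genes in which the 2 left-out libraries stand apart, so the counts describe them and do not test them. The library labelled dKO 6 h replicate 4 was set apart as the lowest of its group in 32 genes and as the highest in 27. The library labelled dKO 0 h replicate 2 was set apart as the highest of its group in 42 genes and as the lowest in 23. These are the libraries that lay nearest to WT cells at 2 h and 1 h. Elsewhere, Isg15 was lowest in dKO 6 h replicate 3, with a gap over range of 0.914, and Miip was highest in dKO 6 h replicate 1, at 0.88.

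The response to LPS differed between genotypes, by the interaction test as labelled, in 14 of the genes followed. By the same test, the difference was called positive in 99 (0.901%) and negative in 61 (0.555%) of all 10985 genes tested. Of the 14, Nts, Rtp4, Epcam, Rnase6, Cd300e, Ccl1, Miip, Asap2, Cd1d1 and Chsy1 were followed because this difference was called. The count of 14 thus follows in large part from that choice and does not show how common such differences are. Log2 differences, dKO minus WT, were positive for Epcam (2.242), Rnase6 (2.135), Rtp4 (2.005), Cd300e (1.996), Nts (1.87), Irgm1 (1.32), Ctsl (1.074) and Irf9 (0.657). Epcam was below 1 RPKM in every dKO library and Cd300e near 1 RPKM or below, so these values follow in large part from the fall in WT cells and not from a larger response of dKO cells. The differences were negative for Ccl1 (-2.334), Miip (-1.57), Asap2 (-1.424), Cd1d1 (-1.421), Chsy1 (-1.233) and Psma6 (-0.669). Ccl1 was at most 2.15 RPKM in dKO libraries and entered the test through the WT libraries. The share of aligned bases on spike-ins was 0.0943 to 0.127% in the dKO libraries and 0.133 to 0.328% in the WT libraries of the same times, and its part in these differences was not tested.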

How the results depend on the processing

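Scaling and the 2 libraries moved the counts of dKO 6 h against dKO 0 h most. From 1167 higher and 5283 lower as labelled, leaving out both gave 1853 and 6892, median-of-ratios scaling 2752 and 2505, and quantile normalization 2238 and 3064. Leaving out both with median-of-ratios scaling gave 4014 and 3803, and with quantile normalization 3395 and 4264, both added after seeing the data. A filter at 5 RPKM lowered the lower count to 3409. Leaving out 1 of the 8 libraries gave 961 to 1514 higher and 4385 to 6311 lower, and 1758 to 1848 and 6717 to 6806 when both were already out. The pseudocount, no filter, no trend and a fit over 32 libraries kept the counts within 1.5 times.

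The difference between genotypes, 99 higher and 61 lower as labelled, depended on single libraries. Leaving out 1 library gave 56 to 383 higher and 25 to 281 lower: without dKO 6 h replicate 4 there were 383 and 141, without dKO 0 h replicate 2 there were 268 and 281, and without any 1 WT library 56 to 72 and 25 to 33. Without both dKO libraries there were 1041 and 1144, and 1321 and 848 with median-of-ratios scaling. The lower count was 38 at a pseudocount of 0.1 and 40 at a filter of 5 RPKM. WT counts, 1644 higher and 6837 lower, were 3704 and 3767 with median-of-ratios scaling and 4397 and 4475 with it and without both dKO libraries.

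A replicate block gave 1091 higher and 4886 lower genes in dKO cells, and 35 and 20 for the difference between genotypes. Same-numbered libraries correlated at -0.2 to 0.293 in dKO cells and at 0.0207 to 0.16 in WT cells. The negative values were those of dKO replicates 2 (-0.2) and 4 (-0.0894), each with a library nearest to another WT time. Whether the numbers stand for pairs is thus not settled.

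Of 169 genes, 163 never changed sign. With median-of-ratios scaling, as labelled and without both libraries, log2 changes turned positive for Psmb5 (0.31 and 0.13), H2-DMb1 (0.18 and 0.0948), Cd1d1 (0.11 and 0.0698) and Cish (0.13 and 0.42). Irf4 ranged from -0.002437 to 0.64 and Tlr2 from -0.008079 to 0.98 when libraries were left out. For the changes outside the scaling, the cause was not tested. With 3 or 4 libraries a group, and no statement that they were separate cultures, the p-values describe these libraries.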
